A study of Drosophila melanogaster with 8 samples.

Results

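Chromatin accessibility was described at 10 Polycomb and Trithorax group genes of Drosophila melanogaster in sorted embryonic cells. The genes were Pc, Psc, Su(z)2, ph-p, ph-d, Scm, E(z), esc, pho and trx, taken by name from the 13945 protein-coding genes that release 6 (dm6) places on the X, the fourth chromosome and the 4 major autosome arms. For each gene, peaks were collected over the gene body and 2000 bp to each side, and at each annotated start site within 500 bp. The embryos were laid overnight at 25°C by Vas::EGFP flies, in which the germline protein Vasa carries GFP, so that both sorted groups had this genotype. GFP-positive primordial germ cells (PGCs) and GFP-negative somatic cells of whole late embryos were separated by flow cytometry and profiled by ATAC-seq, in which a transposase tags accessible DNA. Each group had 2 replicates, which the authors averaged before peaks were called. The somatic group therefore held all GFP-negative tissues together, and a site wide open in few of its cells cannot be told apart from one weakly open in many. A peak height is the averaged coverage at the summit in RPKM, a read density scaled to length and to the number of mapped reads, and the lowest peak of both lists stood at 50 RPKM. A gene without a peak is thus one whose averaged coverage was not listed, which does not mean closed chromatin.

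Polycomb group proteins keep developmental genes silent through cell divisions, and Trithorax group proteins keep them active. Polycomb repressive complex 2 (PRC2) methylates lysine 27 of histone H3, and PRC1, which recognizes that mark, compacts chromatin and ubiquitinates histone H2A. In flies both are brought to Polycomb response elements, to which DNA-binding proteins such as Pho and the GAGA factor bind. Some Polycomb group genes, among them Psc, Su(z)2 and the ph pair, are themselves known targets of Polycomb proteins in embryos and cell lines.

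Sequence at the summits showed what the accessible bases looked like. The 200 bp around the summit of the PGC peak are given in the direction of transcription for ph-p and ph-d, which carry tall peaks and are duplicates of each other, for trx, whose tall peak lies inside the gene, and for esc, which has a narrow peak without GAGAG. They were read from the RefSeq copy of the release 6 assembly, on the reverse strand in all 4 cases. Capitals mark GAGAG, the motif of the GAGA factor, also searched as CTCTC, with overlapping matches counted separately. The ph-p window is chrX:2136876-2137075, the ph-d window chrX:2123426-2123625, the trx window chr3R:14278726-14278925 and the esc window chr2L:11829326-11829525. The last line is a run that the ph-p and ph-d windows have in common.
ph-p: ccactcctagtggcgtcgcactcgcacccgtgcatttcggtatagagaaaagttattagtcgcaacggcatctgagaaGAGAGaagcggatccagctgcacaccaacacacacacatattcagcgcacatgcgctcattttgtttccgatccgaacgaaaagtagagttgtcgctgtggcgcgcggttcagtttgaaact
ph-d: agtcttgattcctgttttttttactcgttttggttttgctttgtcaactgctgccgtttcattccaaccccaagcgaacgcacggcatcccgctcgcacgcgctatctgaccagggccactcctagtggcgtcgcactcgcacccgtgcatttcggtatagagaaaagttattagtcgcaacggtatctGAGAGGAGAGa
trx: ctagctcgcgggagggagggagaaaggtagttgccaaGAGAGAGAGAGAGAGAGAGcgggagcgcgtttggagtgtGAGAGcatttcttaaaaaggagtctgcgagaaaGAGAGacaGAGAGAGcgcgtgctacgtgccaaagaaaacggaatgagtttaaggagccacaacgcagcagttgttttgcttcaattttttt
esc: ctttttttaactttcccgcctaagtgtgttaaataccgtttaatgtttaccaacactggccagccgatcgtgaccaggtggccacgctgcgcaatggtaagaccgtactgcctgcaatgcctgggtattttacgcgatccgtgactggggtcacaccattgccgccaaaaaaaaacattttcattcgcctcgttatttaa
run in ph-p and ph-d: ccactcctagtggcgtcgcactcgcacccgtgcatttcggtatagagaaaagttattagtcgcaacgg
The trx window held 12 GAGAG matches, most of them in a GA repeat, the ph-d window 2, the ph-p window 1 and the esc window 0. Within the printed windows, the shared run of 68 bp was identical base for base. Its first printed base lay 220 bp upstream of the nearest start site in ph-p and 223 bp upstream in ph-d. The run spans bases 1 to 68 of the ph-p window and bases 117 to 184 of the ph-d window. Since the edge of the ph-p window cuts it, the identical stretch may extend further upstream than printed.

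Over the whole series the PGC list held 21357 peaks and the somatic list 19319. On the chromosomes named above there were 19504 and 17411, with median heights of 62.1 and 56.9 RPKM. Each list is one average, so no spread between replicates exists here, the reads behind a height are unknown and no difference was tested. PGC start site peaks stood higher across the genome, with a median ratio of PGC to somatic height of 1.93 (quartiles 1.35 and 2.52) over 3834 genes with both peaks, and a ratio above 1 at 91.3% of them. The lists may differ in scale, so ratios of the 10 genes are given beside this value. As a check of the sort, 11 of 11 germline marker genes had a PGC start site peak and 4 a somatic one. Of 10 somatic marker genes, 10 had a PGC peak and 9 a somatic one. The shares of all protein-coding genes were 51.8% (PGC) and 31.2% (somatic). Median PGC start site heights were 117 RPKM for the germline markers and 223 RPKM for the somatic markers. Where both peaks were present, the median ratio of PGC to somatic height was 2.45 at 4 germline markers, all above 1. At 9 somatic markers it was 2.51, with 7 above 1, so the ratio did not set these marker groups apart. Somatic marker genes thus had tall peaks in the PGC list too, and the part that other cells in the GFP gate may have in the heights given here was not tested.

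Most of the 10 genes had a peak within 500 bp of a start site in both lists, and at 5 of them (Psc, Su(z)2, ph-p, ph-d and esc) the somatic peak covered a start site. A PGC peak lay at a start site of 8 of them, against 51.8% of all protein-coding genes, and a somatic peak at 7, against 31.2%. The same 7 genes (Pc, Psc, Su(z)2, ph-p, ph-d, E(z) and esc) had both, a state found at 27.5% of genes. Only pho had a PGC start site peak without a somatic one (24.3% of genes), none had the reverse (3.72%), and Scm and trx had neither (44.5%). Over the gene body and 2000 bp to each side, all 10 had a PGC peak, against 74.0% of genes, and all except pho had a somatic peak, against 65.2%. These shares are descriptions without a test.

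The heights fell into separate ranges. At Psc, Su(z)2, ph-p and ph-d, the 2 gene pairs of PRC1, the highest start site peak reached 444.2 to 794.3 RPKM in PGCs and 207.6 to 282.8 RPKM in the somatic list. At the other genes with a peak it lay between 73.8 and 148.1 RPKM in PGCs and between 50.3 and 60 RPKM in somatic cells. A height of at least 200 RPKM in both lists, a limit chosen after the values were seen, was reached by 34 protein-coding genes (0.244%), 4 of which are these PRC1 genes. The same 4 also had start site peaks at least 1000 bp wide in both lists, a limit set in the same way and met by 1.10% of genes. The median gene with a start site peak had its highest at 94.9 RPKM and 400 bp wide in PGCs, and at 62.0 RPKM and 200 bp in somatic cells.

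**Figure D1:**
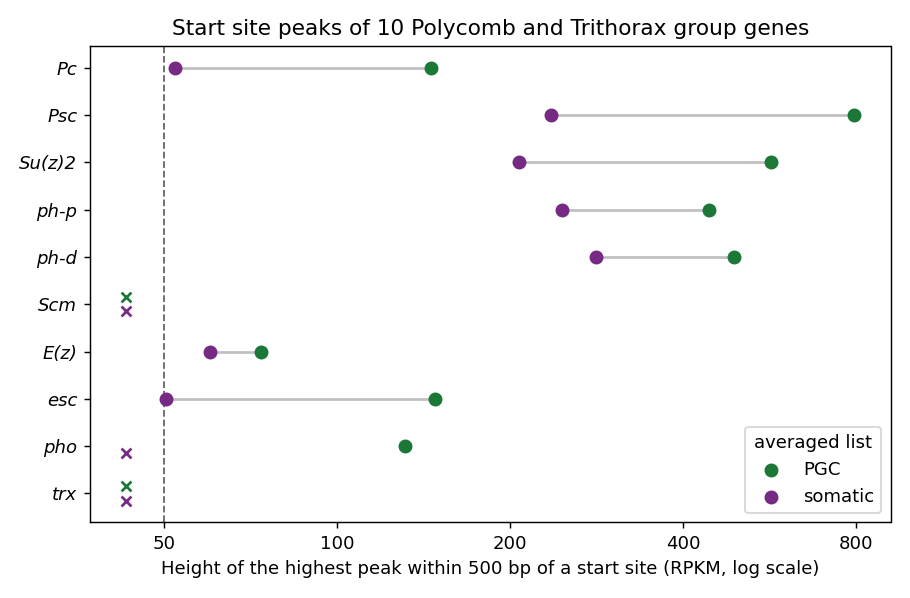
Height of the highest peak within 500 bp of a start site for each of the 10 genes, in RPKM on a log axis, in the averaged PGC list (green) and the averaged somatic list (purple). Points are single averaged values without error bars, crosses left of the dashed line at 50 RPKM mark genes with no peak in a list, and the 4 genes Psc, Su(z)2, ph-p and ph-d lie above 200 RPKM in both lists.

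Psc encodes a RING finger subunit of PRC1 that compacts chromatin in vitro. Its gene (FBgn0005624) runs from 12980994 down to 12965997 on the reverse strand of 2R, with 2 start sites 336 bp apart. The PGC peak over both start sites was 1700 bp wide and reached 794.3 RPKM, the tallest start site peak of the 10 genes. Only 3 of 13945 genes had a PGC start site peak at least as high, Psc included. The somatic peak over the same sites was nearly as wide, at 1650 bp, and reached 235.3 RPKM, a height met by 18 genes. The summits lay 118 bp (PGC) and 168 bp (somatic) inside the gene, in an exon. The ratio of 3.38 was the highest of the 10 genes, and 6.05% of genes with both peaks had one at least as high. Further in, an intron carried a broad somatic peak, 1000 bp wide and 100.6 RPKM high, over a PGC peak of 300 bp and 67.3 RPKM. Among the somatic peaks of the 10 genes that overlapped a PGC peak, it was one of 2 that stood higher than the PGC peak.

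Su(z)2, the neighbour and homologue of Psc, lies on the forward strand of 2R from 12996501 to 13007911 (FBgn0265623). Its start site peak was 1600 bp wide and 569.4 RPKM high in PGCs. In somatic cells it was 1200 bp wide and 207.6 RPKM high, the lowest somatic height among the 4 tall genes. Both peaks covered both start sites, with summits 25 bp (PGC) and 125 bp (somatic) upstream of the first, and the ratio was 2.74. Inside the last part of the gene an exon held a peak in both lists at nearly the same height, 77.7 RPKM (PGC) and 71.4 RPKM (somatic), with the summit in the same 50 bp step.

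Between the divergent start sites of Psc and Su(z)2, 15506 bp hold no part of either gene but 3 further peaks in each list, each overlapping a peak of the other list. The tallest, 4782 bp from the 5′ end of Psc by its PGC summit, was 1650 bp wide with 465.9 RPKM in PGCs and 1550 bp wide with 155.6 RPKM in somatic cells. The other PGC peaks reached 152.2 and 260.1 RPKM, and the somatic peaks at the same places 84.3 and 189.5 RPKM. All 5 peaks from one start site to the other were thus higher in PGCs. The order of the 3 inner peaks differed, since the peak of 189.5 RPKM was the tallest of them in the somatic list.

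The ph genes encode proteins with a SAM domain that polymerizes and links PRC1 complexes. They lie one behind the other on the reverse strand of X, ph-p from 2138371 down to 2126210 (FBgn0004861) and ph-d from 2123286 down to 2115727 (FBgn0004860). The ph-p peak was the widest at a start site of the 10 genes, 2500 bp in PGCs and 1950 bp in somatic cells, with heights of 444.2 and 246.5 RPKM. Its summit fell in the same 50 bp step in both lists, 121 bp upstream of the second of 3 start sites and 1395 bp inside the outermost one. The PGC peak covered all 3 start sites, while the somatic peak ended 121 bp short of the outermost. At ph-d the peaks were 2150 bp and 1750 bp wide and reached 491.1 and 282.8 RPKM, again with the summit at one position, 240 bp upstream of the first start site. The somatic height of ph-d was the highest of the 10 genes, and only 4 genes in all had one at least as high, ph-d included. A second ph-d start site, 1494 bp further in, had only narrow peaks of 53.5 RPKM in PGCs and 51.1 RPKM in the somatic list nearby. Ratios of 1.80 and 1.74 lay between the quartiles of all genes and under the median of 2.32 over 470 genes of X.

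In the 2923 bp between the ph genes, one peak stood at the same 300 bp in both lists, at 129.5 RPKM (PGC) and 100.3 RPKM (somatic). A separate somatic peak of 83.9 RPKM lay under the flank of the wide PGC peak of ph-d. An intron of ph-p had a 500 bp peak in both lists that was higher in somatic cells (89.5 RPKM) than in PGCs (64.5 RPKM), and next to it a peak of 82.1 RPKM in PGCs alone. The pair are duplicates, and reads of identical stretches can be lost, since the lists are labelled as built from uniquely mapping reads. Of all 50 bp stretches in the gene and 2000 bp to each side, 22.7% at ph-p and 20.0% at ph-d occurred elsewhere in the assembly. Over the tall PGC peaks these shares were 1.02% and 1.19%, and at a length of 150 bp they were 0%.

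Pc encodes the chromodomain protein that gives PRC1 its affinity for methylated lysine 27 of histone H3. The gene (FBgn0003042) lies on the reverse strand of 3L from 21318020 down to 21306138 and has 1 start site. The PGC peak over it was 650 bp wide and 146.0 RPKM high, with its summit 56 bp upstream. In somatic cells the start site itself was not under a peak, and the 52.3 RPKM peak counted for it was a single 50 bp step 420 bp into the gene. The PGC peak also lies within 500 bp of the start site of lncRNA:CR45674, so its height cannot be given to Pc alone. With the distance reduced to 250 bp, Pc had no somatic start site peak.

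Scm, a SAM domain protein that connects Polycomb complexes, had no start site peak in either list (FBgn0003334, 3R, reverse strand, 9637611 down to 9633359). The nearest somatic peak, 53.1 RPKM, began 611 bp inside the gene. The only PGC peak near Scm, 53.8 RPKM and 50 bp wide, lay 5911 bp from the start site, beyond the 3′ end and within 500 bp of the start site of SpdS. Another somatic peak of 55.0 RPKM beyond the 3′ end lay near the start site of asRNA:CR45053. No 50 bp stretch of the Scm region occurred elsewhere in the assembly.

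E(z), the histone methyltransferase of PRC2, and esc, the WD40 subunit that binds the methylated histone tail, had lower start site peaks than the PRC1 pairs. E(z) (FBgn0000629) lies on the reverse strand of 3L from 10638130 down to 10634575 with 2 start sites 251 bp apart. Its highest PGC start site peak, 350 bp wide, covered both start sites at 73.8 RPKM, and weaker PGC peaks of 63.4 and 52.0 RPKM stood to either side. The somatic list had 1 peak near a start site, 60 RPKM and 100 bp wide, which began 479 bp inside the second start site, overlapped the PGC peak of 63.4 RPKM and did not meet the highest PGC peak. The ratio of 1.23 was the lowest of the 7 genes. The start site of Cnep1r2 shares the window of the highest PGC peak. At esc (FBgn0000588), on the reverse strand of 2L from 11829405 down to 11827204, the summit lay 21 bp upstream of the start site in both lists. The PGC peak of 148.1 RPKM was 200 bp wide, about as high as that of Pc but narrower, and 77.7% of genes with a PGC start site peak had one at least as wide. The somatic peak at the same summit reached 50.3 RPKM, 50 bp wide, at the edge of what was listed, and the ratio was 2.94.

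Pho is the zinc finger protein that binds Polycomb response elements and is the homologue of mammalian YY1. Its gene (FBgn0002521) lies on the small chromosome 4, reverse strand, from 1181628 down to 1172469. A single PGC peak of 131.1 RPKM and 600 bp covered the start site, with its summit 448 bp upstream. No somatic peak lay over the gene or 2000 bp to each side, and the nearest was 49073 bp from the start site. On chromosome 4 as a whole, 60 of 80 protein-coding genes had a PGC start site peak, with a median of 119 RPKM, and 37 had a somatic one, with a median of 61.0 RPKM. No 50 bp stretch within 500 bp of the pho start site occurred elsewhere in the assembly, although 8.50% of those over the gene and 2000 bp to each side did.

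Trx is a histone methyltransferase that acts on lysine 4 of histone H3 and keeps Hox genes active. The gene (FBgn0003862) is the longest of the 10, 23.5 kb on the reverse strand of 3R from 14286903 down to 14263358, and its 5 transcripts share 1 start site. No peak lay within 500 bp of that site in either list, and the nearest were 7203 bp away in PGCs and 4153 bp away in somatic cells. Inside the gene, a PGC peak from 14278601 to 14279350 reached 243.3 RPKM over 750 bp. Its summit lay 8077 bp downstream of the start site, in intron 1 of 3 transcripts and in intron 2 of the other 2. Somatic peaks of 64.3 RPKM (200 bp) and 59.7 RPKM (100 bp) lay beneath it. Of all protein-coding genes, 1.30% had no PGC start site peak but a PGC peak of at least 200 RPKM in the gene or within 2000 bp. This description was made after the trx value was seen. The 200 bp printed for trx lie under this PGC peak, and the somatic peak of 64.3 RPKM holds 12 GAGAG matches too.

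**Figure D2:**
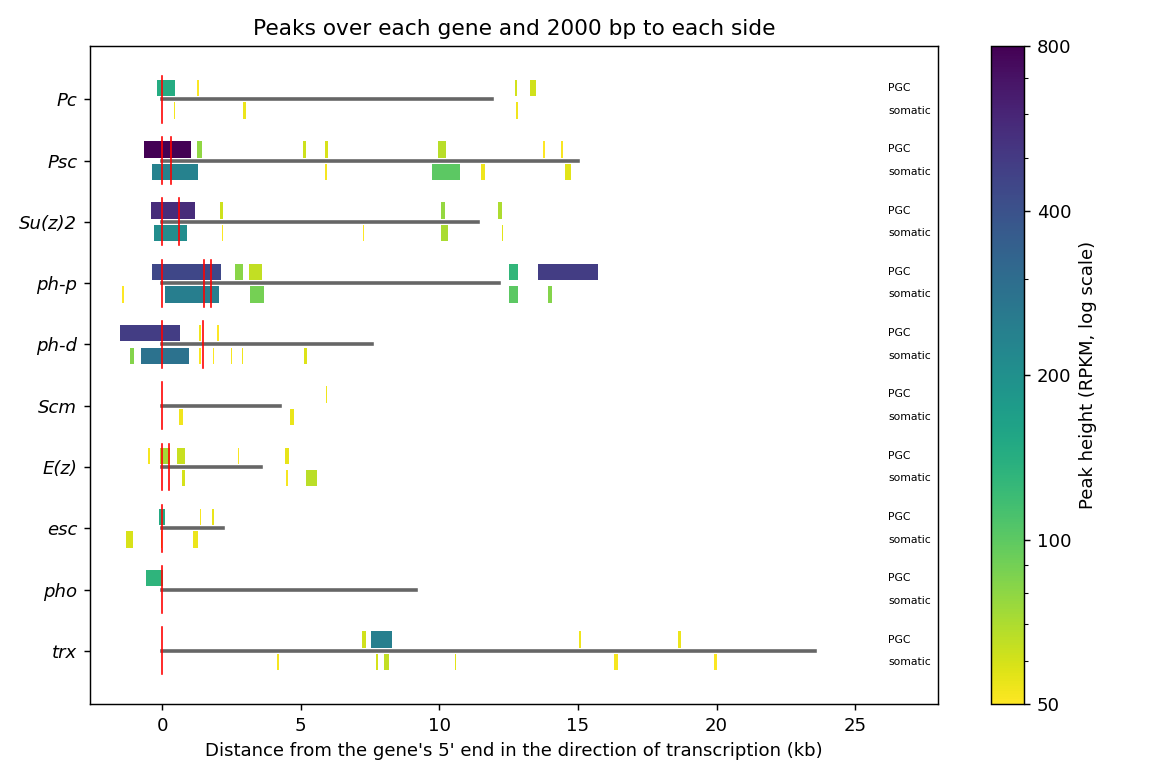
Peaks over each of the 10 genes and 2000 bp to each side, placed by distance in kb from the 5′ end in the direction of transcription, with PGC peaks above the grey gene line and somatic peaks below it. Colour gives the height in RPKM on a log scale and red lines mark start sites. The dark start site peaks of Psc, Su(z)2, ph-p and ph-d are seen, the peak of ph-d appears a second time at the right end of ph-p, and trx has its tallest peak 8 kb inside the gene.

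Over the 10 regions, 139654 bp in all, there were 36 different PGC peaks and 38 somatic peaks, or 25.8 and 27.2 per 100 kb against 14.6 and 13.0 over these chromosomes. The chromosome values cover every base, also between genes, while each region holds a start site. Densities over the same windows of other genes were not computed. Most of the peaks at the 10 genes were low, with medians of 61.8 and 54.8 RPKM. At least 100 RPKM was reached by 9 PGC peaks and 6 somatic peaks, while 14 PGC peaks and 27 somatic peaks stood at 60 RPKM or less. A somatic peak lay under 18 of the 36 PGC peaks (50%, exact 95% binomial interval 32.9 to 67.1%), against 39.3% over the whole list. Conversely, 19 of the 38 somatic peaks met a PGC peak (50%, interval 33.4 to 66.6%), against 45.9%. The intervals cover counting error only, and peaks are not replicates. Away from start sites the median heights were 60.8 RPKM (PGC) and 54.5 RPKM (somatic).

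The ratio of PGC to somatic height was above 1 at all 7 genes with both start site peaks, with a median of 2.74, beside 91.3% and 1.93 over all genes. Relative to the genome median, the order splits the genes: Psc (3.38), esc (2.94), Pc (2.79) and Su(z)2 (2.74) lay above it, and ph-p (1.80), ph-d (1.74) and E(z) (1.23) below it. A PGC peak higher than the somatic one is therefore shared with most genes of these lists. The somatic values of Pc and esc stood within a few RPKM of the lowest listed height, and those of Pc and E(z) came from a peak that did not cover a start site, so their ratios compare different positions or a value at the floor.

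**Figure D3:**
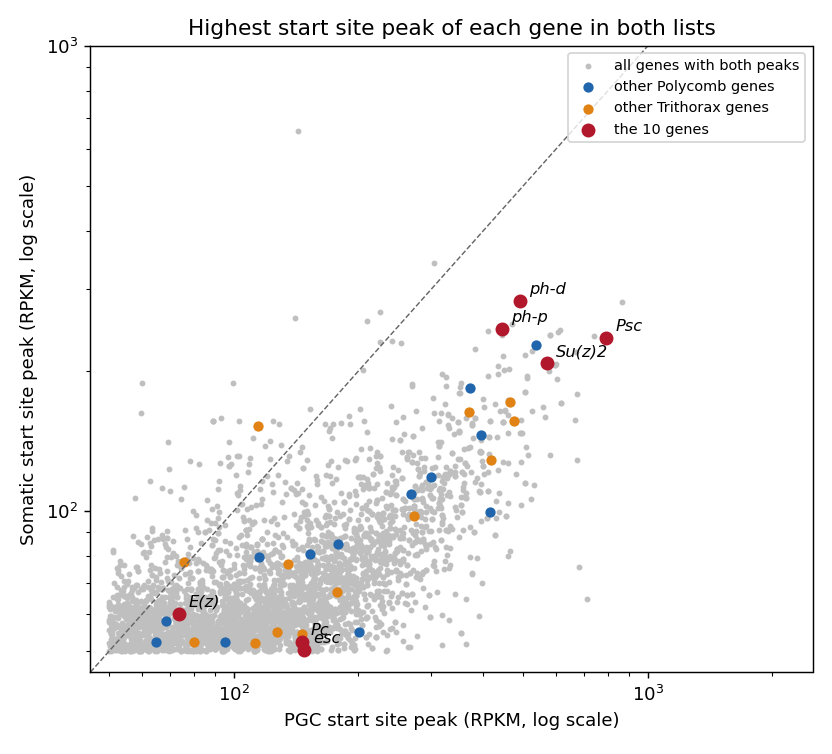
Highest start site peak of each gene with a peak in both lists, PGC height against somatic height in RPKM on log axes, for 3834 protein-coding genes (grey), other Polycomb genes (blue), other Trithorax genes (orange) and the 7 of the 10 genes that have both peaks (red). The dashed line marks equal heights. The 7 red points lie below it, with Psc, Su(z)2, ph-p and ph-d in the upper right and Pc, esc and E(z) near the lower edge.

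Among 23 other Polycomb genes, 21 had a PGC start site peak, 13 a somatic one and 13 both. The shares of all protein-coding genes were 51.8%, 31.2% and 27.5%. At the other Polycomb genes with a peak, median heights were 153 RPKM (PGC) and 85.1 RPKM (somatic). The 23 include genes of DNA-binding proteins or their partners (cg, psq, lolal, Dsp1, grh) and Trl, the gene of the GAGA factor. The medians therefore do not describe subunits of Polycomb complexes alone. The highest PGC peaks were those of cg (538.3 RPKM), lolal (415.2 RPKM) and psq (396.3 RPKM), all 3 genes of DNA-binding proteins or their partners. The highest somatic peaks were at cg (227.3 RPKM), Dsp1 (183.4 RPKM) and psq (146.0 RPKM). Only cg among the 23 reached 200 RPKM in both lists, as the 4 PRC1 genes did. The highest start site peaks of mRpS16 had the same heights as those of cg in both lists, and CG9921 the same as Dsp1. These heights may therefore not belong to cg or Dsp1 alone. Without a peak in either list were escl, the close relative of esc, and Kdm2, a histone demethylase. Among 25 other Trithorax genes, 21 had a PGC start site peak and 13 a somatic one, beside 51.8% and 31.2% of all genes. Medians at these Trithorax genes were 124 and 77.5 RPKM, and none reached 200 RPKM in both. The highest in PGCs were nej (474.6 RPKM), the CBP acetyltransferase, skd (464.2 RPKM), a Mediator subunit, and fs(1)h (417.4 RPKM), a bromodomain protein. The gene mys had the same heights as fs(1)h in both lists, so that peak may not belong to fs(1)h alone. In somatic cells they were skd (171.3 RPKM), kis (163.6 RPKM), a chromatin remodeller, and nej (156.1 RPKM). Like trx, Set1, another methyltransferase for lysine 4 of histone H3, had no start site peak in either list, nor did mor, osa and Bap111, subunits of the Brahma remodelling complex.

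GAGAG was unevenly spread over the accessible windows. In the 200 bp around the PGC summit it was found 6 times at Psc, 3 times at Su(z)2, 2 times at ph-d and 1 time each at ph-p and E(z), 12 times at the internal peak of trx, and not at Pc, esc or pho. Of 5454 such windows at start site peaks of all genes, 32.5% held it, with a mean of 0.861 matches. Counted over the whole highest PGC peak, which is wider at the tall genes, there were 10 matches per kb at Su(z)2, 8.24 at Psc, 6.0 at ph-p, 4.65 at ph-d and 16.0 at trx. Over the highest PGC start site peaks of all genes there were 3.81 per kb. The trx peak lies away from its start site, and no value over internal peaks was computed to set beside it. The shorter peaks of Pc, esc and pho held none, and that of E(z) held 1. Over the highest somatic start site peaks the values were 13.3 matches per kb at Su(z)2, 7.88 at Psc, 2.86 at ph-d and 2.56 at ph-p. The values of both ph genes were thus lower than in their wider PGC peaks. No value over the somatic peaks of all genes was computed to set beside these. In the same 200 bp windows of the 9 genes, GCCAT, the core of the Pho motif (ATGGC on the other strand), was absent, as were CAGGTA, bound by Zelda (TACCTG), and TATCGATA, the core of the DNA replication-related element. Of all windows, 33.5%, 5.54% and 8.78% held these motifs. Over the whole PGC peak, GCCAT was found at 6 of the 9 genes, 3 times each at trx and ph-p, 2 times each at Psc and ph-d and 1 time each at Pc and E(z). This came to 4.0 per kb at trx and 2.86 at E(z), and to between 0.930 and 1.54 at the other 4. Over the highest PGC start site peaks of all genes it was 2.05. CAGGTA was found 1 time, in the Psc peak, and TATCGATA in none. In 300 bp start site windows, GAGAG occurred 8 times at ph-p, 7 at Su(z)2, 4 at Psc and 2 at ph-d. E(z) had 1 and the other genes none, while 30.7% of all genes' windows held it. GCCAT occurred there 2 times at ph-p and 1 time at Scm, against 43.4% of windows. Only Scm held CAGGTA and TATCGATA there, 1 time each, against 6.71% and 8.53%. A match is a run of letters and not a bound site, and binding was not measured.

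**Figure D4:**
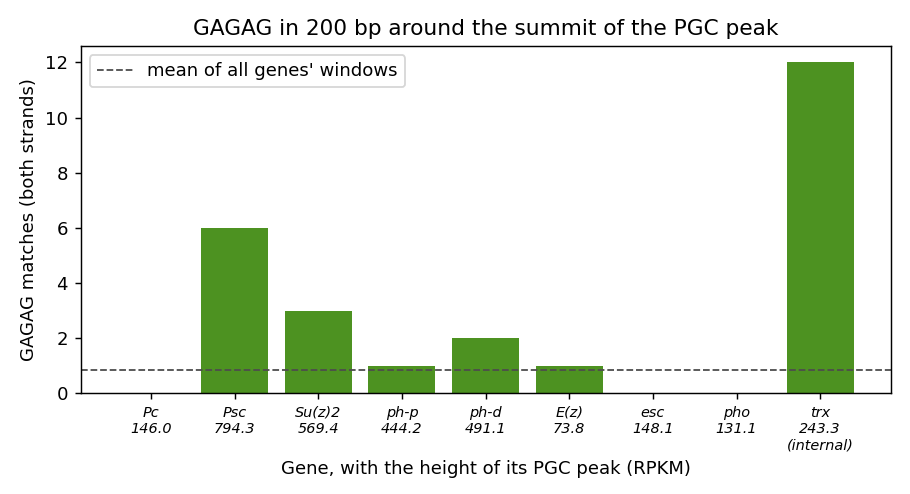
Number of GAGAG matches on both strands in the 200 bp around the summit of PGC start site peaks and of the internal trx peak. The peak height in RPKM stands under each gene name. A dashed line gives the mean over the start site peak windows of all genes (0.861). Scm, without a PGC start site peak, is not shown. The internal trx peak has 12 matches, Psc 6 and Su(z)2 3, while Pc, esc and pho have none.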

How the data were processed

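ATAC-seq of PGCs and somatic cells was analyzed, and the ovary libraries of the series were not used here. Per the submitters' processing notes, adapters were trimmed with cutadapt 4.2, reads aligned to dm6 with Bowtie2 2.5.1, duplicates removed with SAMtools 1.17 and RPKM coverage computed with deepTools 3.5.4. The authors averaged both replicates of a group and called peaks on the average with macs2 bdgpeakcall (stated minimum length 60 bp, maximum gap 150 bp), although the lists also hold peaks 50 bp wide, 10 PGC and 15 somatic ones at these genes. The lists are labelled as built from uniquely mapping reads, and the paper states that blacklisted regions of dm6 were left out. The score deposited by the authors for each peak is 10 times its RPKM height, truncated, and was divided by 10. Scaling by mapped reads lowers all peaks of a library with more reads outside peaks.

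Gene models and start sites came from the Ensembl annotation of release 6. A peak was counted when at least 1 bp lay in the window. Peaks on other sequences (1853 in PGCs and 1908 in somatic cells) were left out. The study states a yield near 2 Gb a sample, but not the reads left after filtering or those behind a peak, so shares carry only exact Clopper-Pearson 95% intervals. Stretches of 50 and 150 bp were counted as repeated when found again on either strand of the assembly. Alternatives were other distances, higher floors, a reciprocal overlap of 50% and a rescaling of PGC heights. All 10 genes were named. Of the other lists, the 3 highest in each peak list and those without a peak were named. The genes and lists were chosen with earlier results of these data known. On simulated data, 200 of 200 planted start site peaks were recovered. This checks only the assignment of peaks to genes, not their detection from reads. Python 3.11.15, numpy 2.4.6, scipy 1.17.1 and matplotlib 3.10.9 were used.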

Additional observations from a re-analysis of the deposited data

How the results depend on the processing

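Counts of genes held better than counts of peaks. A PGC start site peak was found at 7 or 8 of the 10 genes under every distance and floor tried. With a floor of 80 RPKM in both lists, the genes with a somatic start site peak fell from 7 to 4, namely Psc, Su(z)2, ph-p and ph-d, and those with a somatic peak over the gene from 9 to 4. The 36 PGC peaks became 22 at 60 RPKM and 10 at 80 RPKM, and the 38 somatic peaks became 12 and 8, with 91.7% and 75% of them overlapping a PGC peak. A reciprocal overlap of 50% lowered the shared part from 50% to 30.6% of PGC peaks and 28.9% of somatic peaks. Dividing PGC heights by the genome median ratio, a choice made after the data were seen, left 9 PGC peaks, of which 88.9% met a somatic peak, while 26.3% of somatic peaks met one of them. The fewer peaks under higher floors follow from the floor itself, and the lower shares under reciprocal overlap from that stricter rule. Fewer PGC peaks after the division follow likewise, since the floor was applied to the divided heights. The cause of the other changes was not tested. Of 43 alternative values, 30 stayed within 1.5 times the count, or within the interval of the share, that is reported, which still includes 5 in place of 7 genes with a somatic start site peak and 49 in place of 36 PGC peaks. No paired analysis was possible because each list is an average over both replicates. Heights near 50 RPKM, where most somatic peaks of these genes lie, limit what presence or absence can show.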

Other observations

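Transposable element copies of the reference genome lie within some of the 10 genes. The Pc region holds a copy of the LTR retrotransposon roo, 9101 bp long, from 2717 to 11817 bp inside the 5′ end of the gene, and 56.9% of the 50 bp stretches of the region occurred elsewhere in the assembly. One peak of either list lay on the copy, a somatic peak of 54.5 RPKM and 100 bp without a PGC peak, and the start site window and the PGC peak of Pc held no repeated stretch. The pho region holds 10 annotated copies of several families, some of them nested. The longest span, 3897 bp of Cr1a, encloses a jockey2 copy of 3424 bp and a 1360 copy of 1012 bp. The ph-p gene holds an FB copy of 1446 bp. None of these copies had a peak in either list. By their label the lists leave out reads that fit several places, so a repeated copy without a peak need not be closed. Whether the sorted strain carries these copies was not tested.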
